A study of Mus musculus with 18 samples.

Results

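Pancreatic islets of floxed mice kept on chow were compared at 14 and at 8 weeks of age, with 3 libraries in each group, which are 6 of the 18 libraries in the series. All mice of both groups were C57BL/6 and carried the Cdh13 gene with its exon 2 intact between loxP sites, as the labels give it, whereas the series' design text calls these mice WT. Cdh13 encodes T-cadherin, a surface protein that binds adiponectin, and the floxed mice are the controls of the series for mice in which that exon is deleted. The labels name no Cre driver for the floxed mice, give no sex, and do not say whether a library came from 1 mouse or from pooled islets. The spread between libraries on which each p-value rests may therefore be technical. For single genes that spread was estimated over all 18 libraries, including deleted islets and islets on high-fat diet. RNA was extracted from isolated islets and copied with SMART-Seq HT, and the deposited values are FPKM, fragment numbers scaled by transcript length and library size, under gene symbols.

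Islets are clusters of hormone cells scattered through the exocrine pancreas. Beta cells make insulin, alpha cells glucagon, delta cells somatostatin and PP cells pancreatic polypeptide, and vessels, resident macrophages and stromal cells run between them. Acinar cells, the enzyme factories that surround each islet, make digestive proenzymes at very high levels, and isolated islets carry some of their RNA along with that of duct and blood cells.

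The identity of the tissue was clear in all 6 libraries, where the insulin gene Ins2 held 40.3% to 47.3% of summed FPKM. Summed FPKM ranged from 941252 to 1114850, and 11474 to 11787 genes reached 1 FPKM. Summed FPKM was lower in each 14-week library (941252 to 1047280) than in each 8-week library (1093830 to 1114850). Every share of summed FPKM given below carries this smaller denominator at 14 weeks. The absolute depth is unknown, and the value of a single fragment, read from the lowest values, spanned 1.30 times between the libraries. Within a group the libraries correlated with Pearson's r of 0.986 to 0.991 across genes (6 pairs) and between the ages with 0.976 to 0.985 (9 pairs), genes not being independent replicates. Cdh13 measured 1.63, 2.06 and 1.33 FPKM at 14 weeks, against 1.09, 1.08 and 1.84 FPKM at 8 weeks, with a difference of 0.20 (adjusted p = 0.594). The Y-linked gene Ddx3y was present in every library, and Xist, the RNA of the inactive X chromosome, reached 0.042 FPKM at most. Of 4 tested sex-linked genes the Y-linked Eif2s3y was called, at 46.0, 51.3 and 53.8 FPKM at 14 weeks, against 70.7, 57.8 and 57.4 FPKM at 8 weeks (-0.29, adjusted p = 0.0446), and that call was lost in 11 of 21 alternatives.

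Differences are given on the log2(FPKM + 1) scale, 14 minus 8 weeks, with their standard error and a p-value from limma adjusted over the 12234 genes tested, and a gene was called where that p was below 0.05. Genes at low FPKM show a smaller difference on this scale than their fold change. Of the tested genes 508 were called (4.15%), 392 higher at 14 weeks (3.20%) and 116 lower (0.948%). The median difference over all tested genes was -0.02. Among the called genes 48 rose by more than 1 and 1 fell by more than 1. The 2 ages did not overlap for 503 of the called genes. Among all tested genes the ages did not overlap with 14 weeks higher for 1389 (11.4%) and with 14 weeks lower for 1480 (12.1%), and the counts of members that do not overlap below are to be read against these. Of the called genes 105 belong to 1 or more of the gene lists used here.

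The 5 largest rises were of acinar genes. Cel (chromosome 2, 28555795 to 28563403 in mm10), which encodes the bile salt-dependent lipase of pancreatic juice, measured 208, 107 and 32.7 FPKM at 14 weeks, against 1.45, 4.38 and 4.96 FPKM at 8 weeks. Each 14-week library was far above each 8-week library, and the 14-week libraries differed widely among themselves. The difference was 4.41 (SE 1.09, adjusted p = 0.0434). Cela3b, an elastase gene, measured 250, 97.2 and 59.1 FPKM at 14 weeks, against 4.71, 7.74 and 5.71 FPKM at 8 weeks (4.04, SE 1.03, adjusted p = 0.0481). Of the 24 tested acinar enzyme genes 8 rose, 0 fell, and all 24 lay higher without overlap, with a median of 3.58. Of the 8 calls 0 remained with only the compared groups in the fit and 2 without replicate 2 of the 14-week libraries, and Cel and Cela3b each lost the call in 14 of 21 alternatives. Among the other enzyme genes that rose were Klk1 (3.59), Cela1 (3.48), Pnliprp2 (3.21), Amy2b (2.47) and Prss3 (2.36). Other enzyme genes had differences as large and were not called. Prss2, a trypsinogen gene, measured 1188, 497 and 258 FPKM at 14 weeks, against 17.2, 71.0 and 25.9 FPKM at 8 weeks (4.03, SE 1.32, adjusted p = 0.123). The trypsinogen, elastase, amylase and regenerating lectin genes are families of near-identical copies, and how the authors' counting split fragments between them is not given in the sources used here, so single members are less certain than their sum.

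Summed over the 31 listed enzyme genes, the acinar share of all FPKM was 0.722%, 0.308% and 0.128% at 14 weeks, against 0.0116%, 0.0291% and 0.0170% at 8 weeks. The means were 0.386% ± 0.304 at 14 weeks and 0.0192% ± 0.00899 at 8 weeks (SD, n = 3 each), a ratio of 20.1. The lowest 14-week library thus stood above the highest 8-week library, and the difference of 0.367 percentage points gave p = 0.1 by a two-sided exact permutation test, the smallest p that 3 against 3 allows. In bulk samples more acinar cells and more enzyme RNA per cell cannot be told apart. The deleted islets of the same ages, which share no library with these, held 0.199%, 0.347% and 0.322% at 14 weeks, against 0.161%, 0.0348% and 0.00546% at 8 weeks. Their enzyme genes had a median difference of 2.48 and 0 of 24 were called. Without replicate 1 of the 14-week floxed libraries the floxed difference was 0.199 percentage points.

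**Figure D1:**
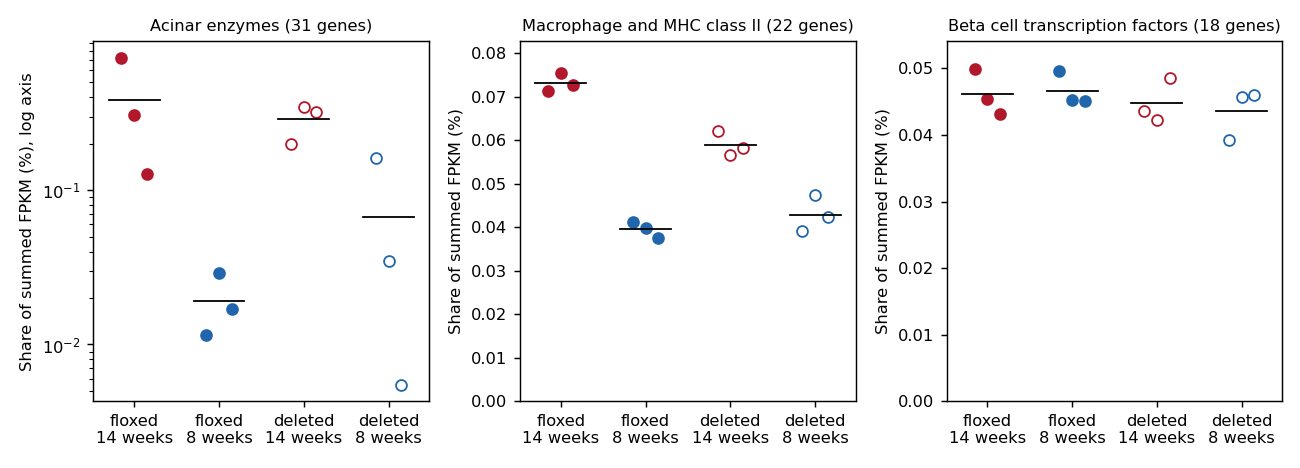
Share of summed FPKM (%) held by 31 acinar enzyme genes (log axis), 22 macrophage and MHC class II genes and 18 beta cell transcription factor genes in floxed islets (filled) and in islets with exon 2 of Cdh13 deleted (open) at 14 and 8 weeks on chow, with points for libraries and lines for means (n = 3). The acinar share spreads widely among the 14-week floxed libraries, 0.128% to 0.722%, and the macrophage share is tight, 0.0714% to 0.0755%.

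The other acinar genes moved with the enzymes in part. Of 11 tested genes of the secretory apparatus and acinar transcription 5 rose, among them Gp2, the main membrane glycoprotein of zymogen granules, which measured 39.8, 21.8 and 8.47 FPKM at 14 weeks, against 0.214, 2.13 and 0.403 FPKM at 8 weeks (3.56, SE 0.639, adjusted p = 0.00828). The others were Pdia2 (2.56), Cuzd1 (1.60), Dmbt1 (1.58) and Fgl1 (0.64). Of these 5 calls 0 remained with only the compared groups in the fit and 1 without replicate 2 of the 14-week libraries. Bhlha15, a transcription factor gene of secretory cells, measured 14.9, 13.1 and 11.8 FPKM at 14 weeks, against 12.2, 12.5 and 12.5 FPKM at 8 weeks, so that its ages overlapped (0.08, adjusted p = 0.800). Ptf1a, the factor that defines acinar cells, was under the filter at 0.427, 0.129 and 0.106 FPKM at 14 weeks and listed at 0 in every 8-week library. The trypsin inhibitor gene Spink1 rose by 3.28 (adjusted p = 0.0194). Of 5 tested genes of regenerating islet-derived lectins, secreted proteins that acinar cells make under stress, Reg3b (3.06) and Reg3g (1.17) rose, with 0 calls left in either of those settings, and Reg1 measured 367, 155 and 85.7 FPKM at 14 weeks, against 5.10, 25.1 and 7.23 FPKM at 8 weeks (3.96, adjusted p = 0.0810).

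Some duct and blood markers rose as well. Krt19, the keratin that marks pancreatic ducts, measured 9.86, 5.25 and 3.79 FPKM at 14 weeks, against 0.779, 1.36 and 3.00 FPKM at 8 weeks (1.43, SE 0.301, adjusted p = 0.0132). Muc1, an apical mucin of duct cells, rose by 1.23 (adjusted p = 0.00246), and the secreted phosphoprotein gene Spp1 rose by 1.05 to 387 ± 55.9 FPKM at 14 weeks, against 187 ± 32.2 FPKM at 8 weeks (SD, n = 3 each; adjusted p = 0.0132). In all 5 of 14 tested duct markers rose and 0 fell, with a median of 0.12, but the duct transcription factor gene Sox9 and the chloride channel gene Cftr were under the filter in both ages. Of 4 tested red blood cell genes 2 rose, with the globin gene Hba-a1 at 10.7, 6.58 and 11.5 FPKM at 14 weeks, against 1.03, 1.49 and 1.17 FPKM at 8 weeks (2.22, SE 0.314, adjusted p = 0.00100). The globin genes Hba-a1 and Hba-a2 are near-identical, and Hba-a2 overlapped between the ages (-0.34).

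The mean log2 level of the enzyme genes was also added to the model as a covariate. The count then came to 330 genes, 251 higher and 79 lower, and 229 of the 508 genes remained called (45.1%). Because the ages do not overlap in acinar level, the covariate takes away part of any difference between the ages as well, and the acinar part in each result below was not tested beyond this count. Of 15 called acinar and lectin genes, 2 remained called with it.

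**Figure D2:**
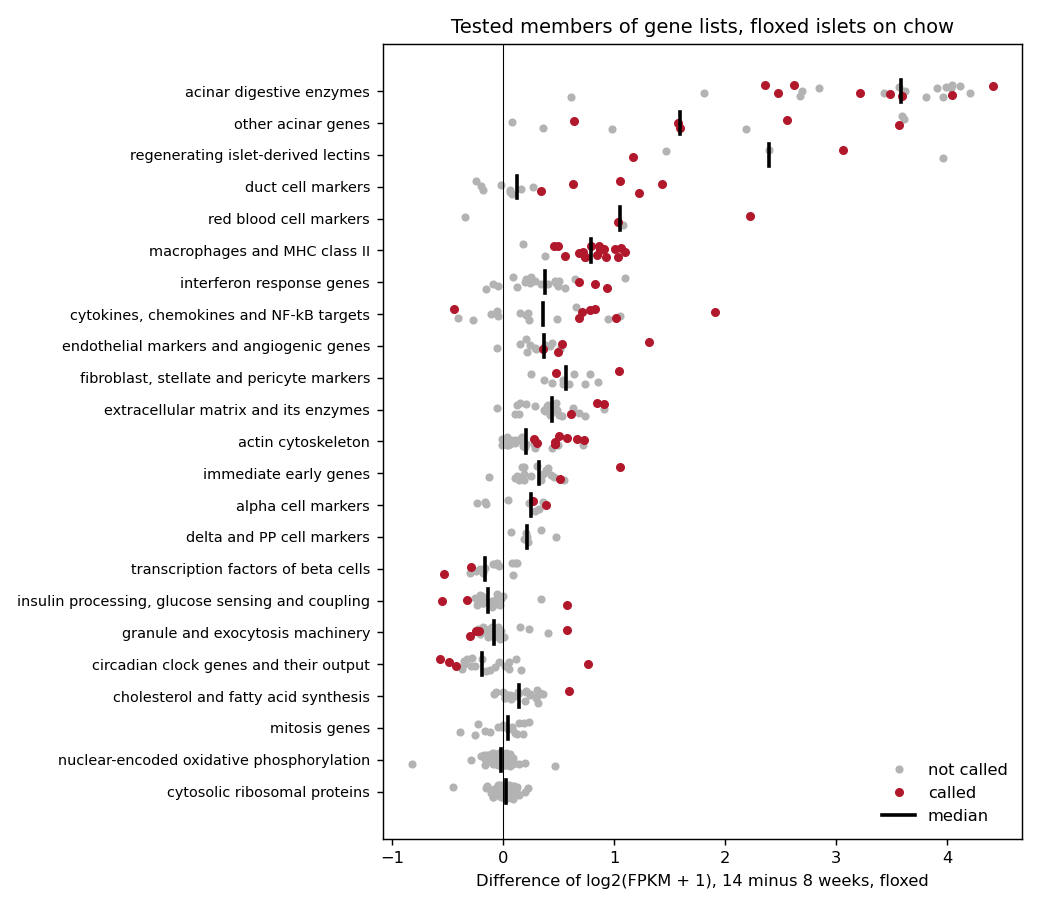
Difference of log2(FPKM + 1), 14 minus 8 weeks in floxed islets on chow, for the tested members of 23 gene lists, with called genes (adjusted p below 0.05) in red, other genes in grey and list medians as black lines. Acinar lists reach furthest to the right (median 3.58 for the enzymes), nearly every macrophage member is called, and the ribosomal and respiratory lists lie around 0.

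Macrophage genes rose nearly throughout the list. Islet macrophages are resident cells that engulf debris, present antigen on MHC class II molecules and make complement component C1q. C1qb, a chain of C1q, measured 49.9, 54.1 and 53.9 FPKM at 14 weeks, against 25.6, 28.3 and 20.6 FPKM at 8 weeks. The libraries of each age were close together and the ages were far apart (1.06, SE 0.105, adjusted p = 7.68e-06). Ctss (chromosome 3, 95526786 to 95556403), the lysosomal protease that trims the class II chaperone, measured 45.0, 52.7 and 50.8 FPKM at 14 weeks, against 23.9, 25.5 and 22.7 FPKM at 8 weeks (1.01, SE 0.0859, adjusted p = 1.07e-06). Of 19 tested macrophage and class II genes 17 rose and 0 fell, with a median of 0.79, and 18 did not overlap. The 2 that were not called were the lysosomal marker Cd68, at 35.4, 39.2 and 44.3 FPKM at 14 weeks, against 36.7, 32.3 and 35.3 FPKM at 8 weeks (0.18, adjusted p = 0.401), and the leukocyte phosphatase gene Ptprc (0.37, adjusted p = 0.149).

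The class II genes encode the alpha and beta chains that hold peptides for T cells, and Cd74 encodes the invariant chain that guards them on the way to the surface. H2-Aa measured 26.7, 31.5 and 30.6 FPKM at 14 weeks, against 16.8, 17.5 and 13.5 FPKM at 8 weeks (0.86, SE 0.105, adjusted p = 8.16e-05). H2-Ab1 measured 45.0, 47.1 and 47.2 FPKM at 14 weeks, against 23.8, 24.9 and 18.5 FPKM at 8 weeks (1.03, SE 0.105, adjusted p = 1.03e-05). Every 14-week library lay above every 8-week library for both genes, and likewise for H2-Eb1 (0.84, adjusted p = 0.00884) and Cd74, which averaged 124 ± 8.12 FPKM at 14 weeks and 77.0 ± 1.59 FPKM at 8 weeks (SD, n = 3 each; 0.68, adjusted p = 9.72e-05). Ciita, the gene of their master coactivator, was under the filter, at 0.0339 FPKM or less at 14 weeks and 0.138 FPKM or less at 8 weeks. Class II promoters are known for a shared array of short elements close to the start of transcription. The 250 bases before the start of H2-Aa and H2-Eb1 are shown to place its Y box, searched as CTGATTGG on both strands. H2-Ab1 and Cd74 are named only. Both are from RefSeq, build GRCm38.p6, at chr17:34287824-34288073 (minus strand) for H2-Aa and chr17:34305617-34305866 (plus strand) for H2-Eb1, written 5′ to 3′ with the Y box in capitals.
H2-Aa: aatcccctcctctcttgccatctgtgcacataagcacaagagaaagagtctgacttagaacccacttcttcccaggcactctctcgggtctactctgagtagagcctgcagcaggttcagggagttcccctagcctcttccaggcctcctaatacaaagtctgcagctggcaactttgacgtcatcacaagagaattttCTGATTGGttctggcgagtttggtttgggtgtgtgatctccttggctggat
H2-Eb1: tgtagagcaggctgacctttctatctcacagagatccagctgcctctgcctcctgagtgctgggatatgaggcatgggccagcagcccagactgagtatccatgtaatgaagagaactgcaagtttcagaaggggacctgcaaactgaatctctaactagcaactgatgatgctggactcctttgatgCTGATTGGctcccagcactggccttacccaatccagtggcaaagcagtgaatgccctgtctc
The element starts at -51 from the start of transcription in H2-Aa and at -62 in H2-Eb1. Of the 32851 promoter windows of this length, 3.83% hold these letters, and a match is a description of the sequence and not of its use in these islets.

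The surface and signalling genes of the same cells ran parallel. Itgax, the integrin CD11c, measured 1.06, 1.43 and 1.36 FPKM at 14 weeks, against 0.438, 0.504 and 0.187 FPKM at 8 weeks (0.73, adjusted p = 0.00845). Adgre1, which encodes F4/80, rose by 0.74 (adjusted p = 0.0134), the growth factor receptor gene Csf1r by 0.72 (adjusted p = 0.00412) and the lipopolysaccharide receptor gene Cd14 by 1.10 (adjusted p = 0.00575). The adaptor genes Tyrobp (0.79) and Fcer1g (0.93), which couple immune receptors to kinases, and the lysozyme gene Lyz2 (0.56) rose as well. As a share of summed FPKM the list held 0.0714%, 0.0755% and 0.0728% at 14 weeks, against 0.0412%, 0.0399% and 0.0376% at 8 weeks, a ratio of 1.85 (exact permutation p = 0.1). Of the 17 called genes 12 remained called with the acinar covariate, and 14 to 17 with 1 library left out. Within the 14-week group, where the acinar share ran from 0.128% to 0.722%, the macrophage share ran from 0.0714% to 0.0755%. T and B cell markers did not show such a rise. Of 5 tested lymphocyte genes 0 were called, and the T cell gene Cd3e was listed at 0 in all 3 libraries at 14 weeks and in 2 of 3 at 8 weeks.

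**Figure D3:**
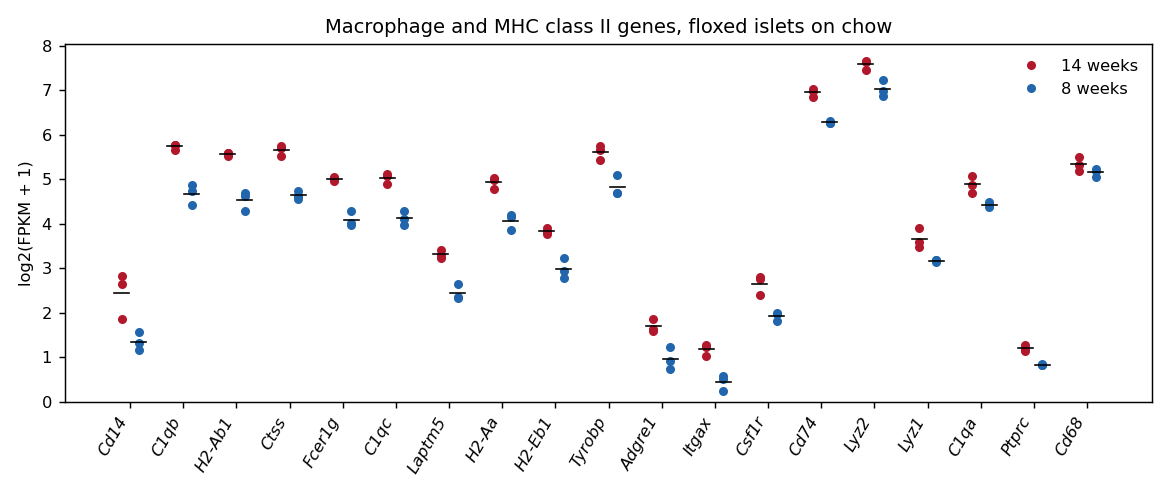
Levels as log2(FPKM + 1) of the 19 tested macrophage and MHC class II genes in floxed islets on chow at 14 weeks (red) and 8 weeks (blue), with points for libraries and lines for means (n = 3), ordered by the size of the difference. All genes but Cd68 have every 14-week library above every 8-week library, from Cd14 (1.10) down to Ptprc (0.37).

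Interferon and inflammatory genes rose at a few members. Ifit1, an antiviral RNA-binding protein gene induced by interferon, measured 6.23, 10.3 and 4.70 FPKM at 14 weeks, against 3.00, 3.33 and 2.86 FPKM at 8 weeks (0.93, SE 0.178, adjusted p = 0.00492). Rsad2 (0.83, adjusted p = 0.0340) and Gbp3 (0.68, adjusted p = 0.0150) also rose, and replicate 2 had the highest value of the 14-week group for all 3 genes. Without that library 1 of these 3 remained called. In all 3 of 22 tested interferon genes rose, with a median of 0.37. Of 20 tested cytokine, chemokine and NF-kB target genes 6 rose and 1 fell, with a median of 0.36. Lcn2, the iron-binding lipocalin of inflamed epithelium, measured 9.73, 12.8 and 6.82 FPKM at 14 weeks, against 1.40, 1.43 and 2.80 FPKM at 8 weeks (1.90, SE 0.372, adjusted p = 0.0107). The monocyte chemokine gene Ccl7 (1.01), the cytokine feedback inhibitor Socs3 (0.83), the adhesion genes Vcam1 (0.79) and Icam1 (0.71) and the prostaglandin synthase gene Ptgs2 (0.68) rose, and the chemokine gene Cxcl16 fell by 0.45 (adjusted p = 0.00884). Without replicate 2 of the 14-week libraries 1 of these 7 remained called. Of 20 tested immediate early genes the stress genes Ier3 (1.05, adjusted p = 4.69e-04) and Dusp1 (0.51, adjusted p = 2.94e-04) rose, with Fos at 0.10 (adjusted p = 0.827). In that list 19 of 20 were above 0, with a median of 0.32. Dusp1 was nearly identical among replicates, with 29.6, 29.8 and 30.4 FPKM at 14 weeks, against 20.1, 20.7 and 21.5 FPKM at 8 weeks.

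Some vessel, stromal and matrix genes rose, and 0 fell. Egfl7, an endothelial secreted factor, measured 25.5, 25.2 and 28.9 FPKM at 14 weeks, against 9.10, 10.2 and 10.99 FPKM at 8 weeks (1.31, SE 0.109, adjusted p = 1.07e-06). Its exons overlap those of Agpat2, and since the preparation does not mark strand, their fragments cannot be told apart there. The same holds for the overlaps of Col4a2 with Col4a1, Arpc1b with Pdap1, Dusp1 with Ergic1, Ctsz with Nelfcd and Ddit3 with Mars. Pecam1, the adhesion molecule of endothelial junctions, measured 15.5, 16.8 and 19.3 FPKM at 14 weeks, against 10.1, 12.1 and 12.6 FPKM at 8 weeks (0.53, adjusted p = 0.00629). Of 16 tested endothelial genes 4 rose, with a median of 0.37, and Kdr, the main receptor for the vascular growth factor that beta cells secrete, was at 0.42 (adjusted p = 0.0956). The ligand gene itself, Vegfa, overlapped between the ages (-0.06, adjusted p = 0.793). Acta2, the actin of contractile stromal cells, rose by 1.05 (adjusted p = 0.0329) and was 1 of 2 called among 12 tested stromal genes, all 12 of which were above 0 with a median of 0.57. Both stromal calls were lost with the acinar covariate, with no filter and without replicate 2 of the 14-week libraries, and that of Acta2 in 9 of 20 alternatives. Of 26 tested matrix genes the basement membrane collagen gene Col4a2 (0.85, adjusted p = 0.00492), Postn (0.90, adjusted p = 0.0239) and Timp3 (0.61, adjusted p = 0.00566) rose, and 25 of 26 were above 0 with a median of 0.44. Col1a1, the main fibrillar collagen, ranged from 3.42 to 9.44 FPKM at 14 weeks, against 1.91 to 3.43 FPKM at 8 weeks, and was not called (0.78, adjusted p = 0.280).

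Actin genes belong to all of these cells. Anxa2, a membrane linker of actin, measured 57.0, 64.4 and 69.4 FPKM at 14 weeks, against 33.2, 39.2 and 41.6 FPKM at 8 weeks (0.73, adjusted p = 0.00884). The crosslinker gene Flna (0.66, adjusted p = 0.00319), the actin nucleation subunit gene Arpc1b (0.57, adjusted p = 0.00247) and Actb itself (0.47, adjusted p = 0.0399) were among 9 of 29 that rose, and 0 fell. Of those 9 genes 5 remained called with the acinar covariate and 4 without replicate 1 of the 8-week libraries, and Actb lost its call in 8 of 21 alternatives. Of the secreted growth regulators Inhba, an activin subunit gene, measured 10.8, 10.5 and 10.9 FPKM at 14 weeks, against 2.52, 3.65 and 3.38 FPKM at 8 weeks (1.50, SE 0.368, adjusted p = 0.0364). The call of Inhba was lost in 9 of 20 alternatives. Cyr61, a matricellular gene driven by cell stretch, rose by 1.44 (adjusted p = 0.00228).

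The endocrine genes changed little, and where they were called they mostly fell. Ins2 measured 379371, 404972 and 446586 FPKM at 14 weeks, against 513653, 525518 and 523780 FPKM at 8 weeks. All 14-week values were below all 8-week values, and the difference just missed the threshold (-0.35, SE 0.0982, adjusted p = 0.0505). Ins1, the second insulin gene of the mouse, was at -0.32 (adjusted p = 0.0722), and Iapp, the amyloid peptide secreted with insulin, at -0.18 (adjusted p = 0.229). Gcg, the glucagon gene, measured 40581, 37346 and 38385 FPKM at 14 weeks, against 32835, 29830 and 28484 FPKM at 8 weeks, without overlap and not called (0.35, adjusted p = 0.117). Sst was at 0.22 (adjusted p = 0.258), and Ppy overlapped widely (0.21, adjusted p = 0.865). Of 8 hormone genes 0 were called, and their sum came to 56.4% ± 1.32 of FPKM at 14 weeks and 60.7% ± 0.360 at 8 weeks (SD, n = 3 each; exact permutation p = 0.1).

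Glucose sensing genes were among those that fell. Slc2a2 (chromosome 3, 28697903 to 28731359), the glucose transporter GLUT2 of mouse beta cells, measured 33.7, 28.8 and 28.6 FPKM at 14 weeks, against 47.5, 45.0 and 42.0 FPKM at 8 weeks (-0.55, SE 0.0922, adjusted p = 0.00174). Mlxipl, which encodes the glucose-responsive factor ChREBP, measured 43.2, 36.6 and 35.7 FPKM at 14 weeks, against 52.3, 57.6 and 58.0 FPKM at 8 weeks (-0.53, SE 0.0920, adjusted p = 0.00214). Slc30a8, the zinc transporter of insulin granules, fell by 0.32 (adjusted p = 0.0275), and Foxa2, a pioneer factor of islet genes, by 0.29 (adjusted p = 0.0137). Chgb, a granule matrix protein gene, went the other way, with 501, 520 and 507 FPKM at 14 weeks, against 283, 363 and 387 FPKM at 8 weeks (0.57, adjusted p = 0.00537). The beta cell factor gene Pdx1 overlapped between the ages and was not called (-0.30, adjusted p = 0.0601). Mafa was low, at 1.19, 2.88 and 1.66 FPKM at 14 weeks, against 0.780, 2.87 and 1.63 FPKM at 8 weeks (0.11, adjusted p = 0.903). Of 17 tested beta cell transcription factors 2 fell and 0 rose (median -0.16), and of 22 genes of insulin processing, glucose sensing and coupling 2 fell and 1 rose (median -0.14). Of 13 maturity genes, among them Ucn3 (-0.12, adjusted p = 0.349), 0 were called. The beta cell factor sum was 0.0462% ± 0.00344 of FPKM at 14 weeks and 0.0467% ± 0.00259 at 8 weeks (SD, n = 3 each, exact permutation p = 1.0). In FPKM that sum was lower at 14 weeks without overlap, 445 to 470 against 498 to 543 at 8 weeks. Summed FPKM of all genes was lower too, so the share alone does not show this fall. Slc2a2 was called under all 21 alternatives tried. Mlxipl, Foxa2 and Slc30a8 lost the call with the acinar covariate, where the difference was -0.44 for Mlxipl and -0.40 for Slc30a8, and Foxa2 lay between -0.34 and -0.26 under every alternative. In all, Mlxipl lost its call in 1 of 21 alternatives, Foxa2 in 5 of 21 and Slc30a8 in 7 of 21.

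Genes that mature beta cells keep low rose at 2 of 11 members. Hk1, a hexokinase of high glucose affinity, measured 2.48, 2.70 and 2.53 FPKM at 14 weeks, against 0.585, 1.11 and 1.43 FPKM at 8 weeks (0.83, SE 0.147, adjusted p = 0.00261). Aldh1a3, a retinaldehyde dehydrogenase found in dedifferentiated beta cells, measured 1.39, 3.82 and 2.39 FPKM at 14 weeks, against 0.476, 1.02 and 1.30 FPKM at 8 weeks (0.84, adjusted p = 0.0350). The call of Aldh1a3 was lost in 8 of 20 alternatives. Ldha overlapped between the ages (0.52, adjusted p = 0.203). Of 10 tested alpha cell markers the carrier genes Ttr (0.39, adjusted p = 0.0267) and Gc (0.27, adjusted p = 0.0365) rose, and the alpha cell factor gene Irx2 was not called (0.04, adjusted p = 0.918). Ttr lost its call in 7 of 21 alternatives and Gc in 8 of 21. Of 7 delta and PP cell markers 0 were called. Of 23 tested granule and exocytosis genes 3 fell, among them the vesicle GTPase gene Rab3a (-0.30, adjusted p = 0.0196) and the granule gene Scg3 (-0.22, adjusted p = 0.0272), and 1 rose, which was Chgb.

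Clock genes moved in opposite directions. The mammalian clock is a loop in which ARNTL (BMAL1) and CLOCK drive the Per and Cry genes, whose products then oppose them. ARNTL and CLOCK also drive the output factor gene Dbp. The labels give no time of day at which islets were taken. Arntl (chromosome 7, 113207465 to 113314126) measured 7.49, 8.45 and 8.48 FPKM at 14 weeks, against 4.12, 4.02 and 5.05 FPKM at 8 weeks (0.76, SE 0.122, adjusted p = 0.00105). Dbp measured 15.7, 14.6 and 13.8 FPKM at 14 weeks, against 20.4, 23.3 and 23.1 FPKM at 8 weeks (-0.57, SE 0.111, adjusted p = 0.00567). Per3 measured 4.34, 3.79 and 3.34 FPKM at 14 weeks, against 6.13, 5.96 and 5.16 FPKM at 8 weeks (-0.49, SE 0.0936, adjusted p = 0.00510). Cry2 fell by 0.43 (adjusted p = 0.0195), and the exons of Cry2 and of Dbp overlap those of neighbouring genes. Of 21 tested clock genes 1 rose and 3 fell, and 12 lay lower and 1 higher without overlap, with a median of -0.19. Per2 (-0.33, adjusted p = 0.181), Nr1d2 (-0.36, adjusted p = 0.110) and Hlf (-0.37, adjusted p = 0.0956) lay lower without being called, and Cry1 overlapped (-0.04, adjusted p = 0.898). The calls of Arntl and Dbp held under all 21 alternatives tried.

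DBP and its relatives bind the D box, and the promoter of Per3 is shown because its window holds 2 copies of it, searched as TTATGNAA on both strands. The 250 bases before its start are at chr4:151044666-151044915 (minus strand, RefSeq, GRCm38.p6), written 5′ to 3′ with both copies in capitals.
Per3: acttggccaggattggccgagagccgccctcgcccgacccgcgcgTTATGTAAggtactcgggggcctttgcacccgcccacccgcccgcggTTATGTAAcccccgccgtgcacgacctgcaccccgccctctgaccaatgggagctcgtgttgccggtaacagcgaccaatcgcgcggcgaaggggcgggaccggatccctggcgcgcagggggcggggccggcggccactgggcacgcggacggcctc
The first copy starts at -205 from the start of transcription. All 4 called clock genes have such a window, and that of Per3 alone holds the letters in this window, as do 3.07% of the 32851 windows of all genes.

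**Figure D4:**
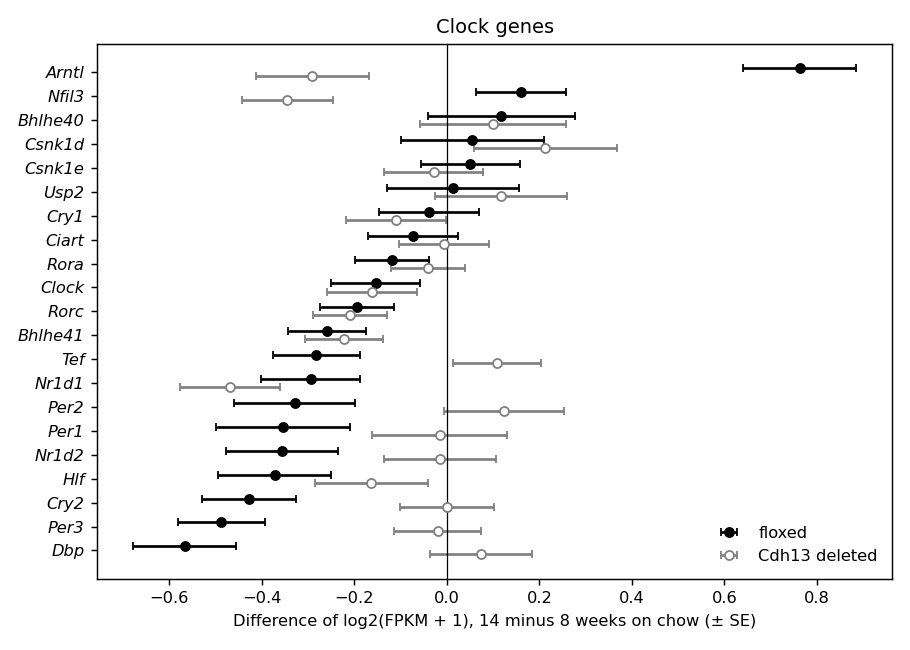
Difference of log2(FPKM + 1), 14 minus 8 weeks on chow, of the 21 tested clock genes in floxed islets (black) and in islets with exon 2 of Cdh13 deleted (open), with bars of 1 SE. In floxed islets Arntl stands at 0.76 and Dbp, Per3 and Cry2 at -0.57, -0.49 and -0.43, and in deleted islets the same 4 genes stand between -0.29 and 0.07.

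In metabolism and stress the calls were few. Cpt1a, the gate of mitochondrial fatty acid oxidation, measured 18.2, 15.0 and 14.0 FPKM at 14 weeks, against 22.5, 19.6 and 20.9 FPKM at 8 weeks (-0.40, SE 0.0901, adjusted p = 0.0141), and Hadh, a dehydrogenase of the same pathway, fell by 0.22 (adjusted p = 0.0364). These were the 2 calls among 23 fat oxidation genes. Fdps, the farnesyl diphosphate synthase of the sterol pathway, rose by 0.59 (adjusted p = 0.00129), the 1 call among 27 sterol and fatty acid synthesis genes, of which 24 were above 0 (median 0.14). Ddit3, the stress factor CHOP, measured 511, 529 and 505 FPKM at 14 weeks, against 724, 717 and 697 FPKM at 8 weeks (-0.47, SE 0.0941, adjusted p = 0.00664). Herpud1 fell by 0.26 (adjusted p = 0.0354) and the chaperone partner gene Sdf2l1 rose by 0.35 (adjusted p = 0.00269), and Hspa5, the main chaperone of the endoplasmic reticulum, overlapped between the ages (-0.06, adjusted p = 0.675). Herpud1 lost its call in 7 of 21 alternatives and Sdf2l1 in 0 of 21. Gstm1, a glutathione transferase, fell by 0.39 (adjusted p = 0.00609) and Gpx3, a secreted peroxidase, rose by 0.32 (adjusted p = 0.0261).

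Proliferation genes were low in both ages. Of 17 tested mitosis genes 0 were called (median 0.04), and Mki67, the usual marker of cycling cells, stayed under the filter at 0.204 FPKM or less at 14 weeks and 0.247 FPKM or less at 8 weeks. Ccnd2, the D-type cyclin of beta cells, was at -0.22 (adjusted p = 0.103). Of 23 S phase genes Mcm3 (0.52, adjusted p = 0.0364) and Fen1 (0.33, adjusted p = 0.0460) rose. Mcm3 lost its call in 9 of 20 alternatives and Fen1 in 14 of 21. The cycle inhibitor gene Cdkn1a was at -0.20 (adjusted p = 0.327), and Cdkn2a was under the filter. The large machineries were level. Of 80 ribosomal protein genes 0 were called (median 0.02), and of 77 tested genes of oxidative phosphorylation 0 were called (median -0.02).

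The genes with the smallest p-values were not acinar. Akr1a1 (chromosome 4, 116636510 to 116651680), an aldehyde reductase, measured 321, 326 and 353 FPKM at 14 weeks, against 210.3, 210.1 and 207 FPKM at 8 weeks (0.67, SE 0.0554, adjusted p = 1.07e-06). Tgfbi, a matrix protein induced by TGF-beta, measured 11.7, 12.8 and 13.4 FPKM at 14 weeks, against 4.91, 5.36 and 6.07 FPKM at 8 weeks (1.08, SE 0.0990, adjusted p = 2.87e-06). The lysosomal genes Ctsz (0.88) and Acp5 (1.30), the prion protein gene Prnp (0.72) and the insulin signalling kinase gene Akt2 (0.68) completed the 10 together with Egfl7, Ctss, C1qb and H2-Ab1. All 10 were called under all 21 alternatives.

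Erdr1, the erythroid differentiation regulator gene, fell the most. It measured 16.5, 31.2 and 18.3 FPKM at 14 weeks, against 84.9, 56.9 and 49.4 FPKM at 8 weeks (-1.51, SE 0.261, adjusted p = 0.00567). Other falls were smaller. Akr1c19, an aldo-keto reductase gene, fell by 0.62 (adjusted p = 8.65e-04), and the splicing kinase gene Clk1 by 0.60 (adjusted p = 0.00212). Msln, the surface antigen mesothelin, measured 80.0, 88.0 and 75.1 FPKM at 14 weeks, against 131, 104 and 113 FPKM at 8 weeks (-0.51, adjusted p = 0.00132), and its neighbour on chromosome 17, Mslnl, fell by 0.52 (adjusted p = 0.0141). Hist1h3e, a histone gene of a family with near-identical members, fell by 0.88 (adjusted p = 0.0381), and the cytokine receptor gene Cntfr by 0.74 (adjusted p = 0.0448). Hist1h3e lost its call in 10 of 20 alternatives and Cntfr in 12 of 21.

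The islets with exon 2 deleted went through the same ages on chow and share no library with the floxed islets. In them 356 genes were called (2.91%), 287 higher at 14 weeks (2.35%) and 69 lower (0.564%). Of the 508 genes called in floxed islets 395 had the same sign in deleted islets (77.8%), and the genes called in both came to 124, which is 24.4% of the floxed and 34.8% of the deleted calls. The genes called higher in floxed islets had a median of 0.60 there and 0.22 in deleted islets, and those called lower -0.35 in floxed and -0.08 in deleted islets. These genes were chosen by their floxed values, so their floxed and deleted medians are not on an equal footing. Akr1a1 was called in the same direction in both, with 293, 314 and 302 FPKM at 14 weeks, against 206, 186 and 196 FPKM at 8 weeks in deleted islets (0.63, adjusted p = 5.68e-06), and so did Egfl7 (1.16, adjusted p = 5.68e-06) and Slc2a2 (-0.37, adjusted p = 0.0328). Of the 19 tested macrophage genes 4 were called in deleted islets (median 0.30). Medians in deleted islets were -0.10 for the endothelial, 0.11 for the stromal, -0.04 for the matrix and -0.03 for the actin list. They were -0.03 for the interferon and -0.09 for the inflammatory list. The medians of the regenerating lectin (2.26), duct (0.15) and sterol (0.14) lists were close to the floxed ones (2.40, 0.12 and 0.14). The interaction called 1 of 26 tested matrix genes and 0 endothelial, stromal or actin genes, where 0.196% of all tested genes were called. That matrix gene was Mfap2, at 0.11 in floxed and 1.15 in deleted islets, the opposite order to the matrix medians.

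A test of the difference itself, the interaction of age and genotype, called 24 genes (0.196%), 18 with the higher age difference in floxed islets (0.147%) and 6 with the lower (0.0490%), and 17 of them were called in floxed islets. H2-Aa measured 21.97, 21.97 and 17.9 FPKM at 14 weeks, against 21.4, 23.3 and 20.5 FPKM at 8 weeks in deleted islets, an age difference of -0.08, so that floxed minus deleted came to 0.94 (adjusted p = 0.0120). Ctss rose in deleted islets too, by 0.39 (adjusted p = 0.0173), against 1.01 in floxed islets, and floxed minus deleted came to 0.63 (adjusted p = 0.0428). These were the 2 macrophage genes called in the interaction. Arntl measured 5.44, 5.42 and 6.26 FPKM at 14 weeks, against 7.17, 5.87 and 8.78 FPKM at 8 weeks in deleted islets (-0.29), and floxed minus deleted came to 1.05 (adjusted p = 0.0131). Erdr1 measured 13.6, 25.2 and 14.7 FPKM at 14 weeks, against 5.82, 5.18 and 5.94 FPKM at 8 weeks in deleted islets, opposite to its fall in floxed islets (-2.96, adjusted p = 0.00734). Of the acinar enzyme genes 0 were called in the interaction.

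**Figure D5:**
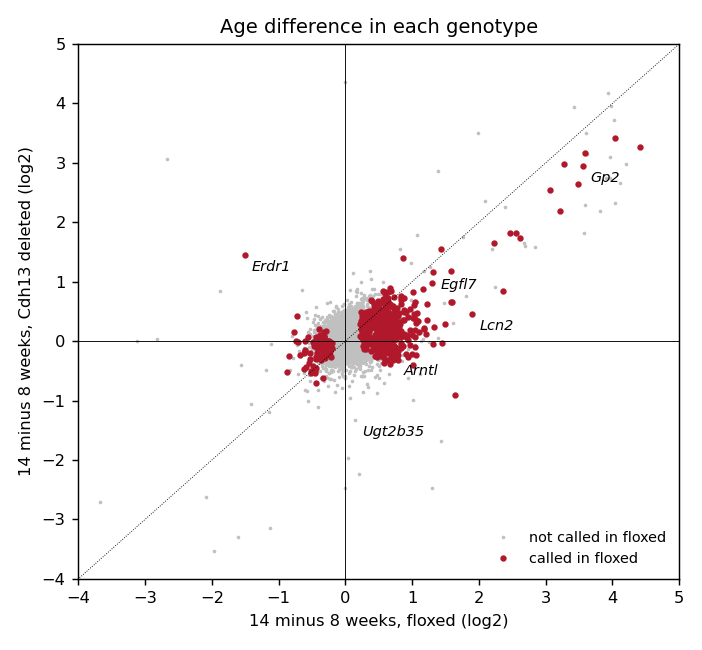
Difference of log2(FPKM + 1), 14 minus 8 weeks on chow, of each tested gene in floxed islets (x axis) and in islets with exon 2 of Cdh13 deleted (y axis), with genes called in floxed islets in red and the line of equal differences dotted. Acinar genes such as Gp2 lie far from 0 in both genotypes, most other red points lie nearer to 0 on the y axis, and Erdr1 lies at -1.51 in floxed and 1.45 in deleted islets.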

How the data were processed

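Gene expression was measured by RNA sequencing in 18 libraries of isolated mouse islets, of which 6 (floxed, chow, 14 or 8 weeks) are described and 6 (exon 2 of Cdh13 deleted, chow, the same ages) are set beside them. Per the labels, total RNA was copied with SMART-Seq HT and made into libraries with Nextera, which does not mark strand. The authors deposited FPKM by gene symbol. The submitters' processing notes name build mm10, Cufflinks 2.2.1, TopHat2 2.0.13, SAMtools 0.1.19 and Bowtie2 2.2.3. Annotation, filters and the part each tool played were not given in the sources used here, and the unit follows from Cufflinks and the range of the values.

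Tables list 24346 symbols, 5544 at 0 in every library. The 12234 genes that reached 1 FPKM in 3 or more of the 18 libraries were tested. Values were modelled as log2(FPKM + 1) with limma 3.58.1 (R 4.3.3, statmod 1.5.0), with 6 group means over all 18 libraries and moderated variances with a trend and robust to outlying genes. P-values were adjusted by the Benjamini-Hochberg method and called below 0.05. Shares of summed FPKM were compared by a two-sided exact permutation test. Depth in fragments is unknown, and relative depth was read from the commonest ratio of low values between libraries.

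Gene lists, and the comparison itself, were chosen with earlier results of these data known. Named were any list members, the 20 top rises and the 20 top falls of called genes whose ages did not overlap, the 10 smallest p-values and the 10 smallest of the interaction. A few clauses name genes outside this rule, and some genes that meet it are not reported here. The alternatives were quantile normalization, median-ratio scaling, a pseudocount of 0.1, no filter, a filter at a mean of 5 FPKM, sample quality weights, a fit of the compared groups alone, replicate number as a block, the acinar level as a covariate, and leaving out each of the 12 chow libraries, whose remaining pair was taken to vary as the other groups do. Gene positions and exon overlaps come from GENCODE on GRCm38, promoters from RefSeq. Figures were drawn with matplotlib 3.10.9 from tables made with pandas 2.3.3 and numpy 2.4.6 in python 3.11.15.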

Additional observations from a re-analysis of the deposited data

Results flagged for a closer look

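The age difference differed between the genotypes for the genes described here by the interaction of age and genotype, given as floxed minus deleted with adjusted p-values from limma. Beside H2-Aa (0.94), Arntl (1.05), Erdr1 (-2.96) and Ctss (0.63), whose values stand above, these were as follows.

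Ugt2b35, Mfap2 and Fam101a were called in deleted islets and not in floxed islets. Ugt2b35, a glucuronosyltransferase gene, measured 0.706, 0.907 and 0.857 FPKM at 14 weeks, against 0.723, 0.694 and 0.556 FPKM at 8 weeks in floxed islets, and 0.663, 0.960 and 0.360 FPKM at 14 weeks, against 2.60, 3.52 and 3.25 FPKM at 8 weeks in deleted islets (1.46, adjusted p = 0.00323). Mfap2, a microfibril protein gene, was at 0.11 in floxed and 1.15 in deleted islets (-1.05, adjusted p = 0.0168). Fam101a was at 0.30 in floxed and -0.39 in deleted islets (0.69, adjusted p = 0.0307).

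The lipid phosphatase gene Ppap2a rose in floxed and fell in deleted islets, with 29.7, 32.0 and 38.4 FPKM at 14 weeks, against 20.5, 21.96 and 23.2 FPKM at 8 weeks in floxed islets, and 23.6, 25.8 and 20.4 FPKM at 14 weeks, against 31.9, 29.7 and 28.7 FPKM at 8 weeks in deleted islets (0.94, adjusted p = 0.00323). The stress and corticoid kinase gene Sgk1 was at 0.58 in floxed and -0.29 in deleted islets (0.87, adjusted p = 0.0131), and Ctla2a at 0.71 in floxed and -0.32 in deleted islets (1.04, adjusted p = 0.0131). Tgfbi was at 1.08 in floxed and 0.34 in deleted islets (0.74, adjusted p = 0.0364), Dusp1 at 0.51 in floxed and 0.01 in deleted islets (0.50, adjusted p = 0.0471), and the non-coding G530011O06Rik at -0.73 in floxed and 0.42 in deleted islets (-1.15, adjusted p = 0.0428).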

How the results depend on the processing

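The 508 calls in floxed islets came to 963 with sample quality weights and 330 with the acinar covariate, and to 343 to 510 under the other settings with all libraries. With 1 library left out they ranged from 237 to 636, with the lowest counts without replicate 2 (237) or 3 (249) of the 14-week or replicate 1 (260) of the 8-week floxed libraries. The 356 calls in deleted islets came to 1032 with weights, 213 with the covariate and 85 with only those groups in the fit, and to 149 to 399 with 1 library left out. The 24 interaction calls came to 3 without a filter, 182 with weights, 14 with only the groups compared, 51 with the covariate, and 4 to 41 with 1 library left out. Deviations from the group mean correlated at 0.0196, 0.166 and 0.0164 between floxed libraries of the same replicate number. Between different numbers they ran from -0.0863 to 0.0606. With 3 libraries in a group these values cannot decide whether replicate numbers pair the samples. With the replicate block the counts were 510, 336 and 26. The acinar share difference was 0.199 to 0.496 with 1 library left out. The called list members, top rises, top falls and smallest p-values in floxed islets came to 133 genes, not all of them described here. Of these genes 39 were called in every alternative run on them. Of 2748 single results 565 lost the call and 0 turned direction. Among genes not called, Ppy ranged from -0.063 (without replicate 3 of the 14-week floxed libraries) to 0.53, and Mafa from -0.18 (without replicate 1 of the 8-week floxed libraries) to 0.39, with -0.12 without replicate 2 of the 14-week floxed libraries. The causes of these changes were not tested, and dropping a library or group also leaves fewer samples. Quantile normalization sets the most abundant hormone genes equal between libraries by construction. The filter at 1 FPKM leaves low genes out of the counts given, and without it 18802 genes were tested.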
